A study of Mus musculus with 18 samples.

Results

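The midbrain of Fmr1CRE mice was compared with the midbrain of wild-type mice at the level of single transcripts. Of the 18 libraries of the series, 6 entered the comparison, 3 from Fmr1CRE mice and 3 from wild-type littermates, all killed at postnatal day 25 (P25). They were chosen by the mouse and region written in the name of each transcript file. Fmr1CRE mice carry, in the mouse version of a cis-regulatory element (CRE) near Fmr1, a single-nucleotide change modelled on a human variant. The change was introduced into mouse zygotes with CRISPR/Cas9, and several lines were kept on a C57BL/6 background. Which line gave these mice is not given in the sources used here, and the wild-type mice carry the unedited element. Ddx3y, a gene of the Y chromosome, was read at 82.5 to 115 CPM (counts scaled to the library total) in the 6 libraries and Xist at 0.711 CPM or less, the pattern of male mice. Poly(A) RNA was read in single-end reads of 50 bases, and salmon, which shares reads out among the annotated transcripts that they fit, assigned 23904566 to 28060951 reads per library. Transcripts that share most of their exons are told apart by the few reads that cross the places where they differ.

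FMRP, the protein of Fmr1, binds RNA and restrains the translation of many synaptic messages, and its loss causes fragile X syndrome. Most brain genes make several transcripts, through alternative promoters, exons and 3' ends, and brain is among the tissues with the most alternative splicing. A gene can therefore keep its total while the transcripts inside it change places. For each gene the share of a transcript is given here as its reads in percent of all reads of that gene, so that shares of 1 gene sum to 100.

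The labels of the libraries were checked first. Of the 18 transcript files, 16 are attached to the record of another sample, 5 of the 6 midbrain files among them. All 18 matched the gene count column of the mouse and region in their own name best, with a median difference of at most 0.466% against at least 9.57% for any other column. The midbrain genes Th, Slc6a3 and Slc18a2, which mark dopamine neurons, were read in all 6 libraries, between 17.4 and 42.7 CPM. The 14 midbrain markers summed to 124 to 212 CPM in Fmr1CRE and 176 to 247 CPM in wild-type midbrain. They summed to 12.7 to 46.7 CPM in forebrain and to 79.9 to 143 CPM in hindbrain, so that the highest hindbrain library lay above the lowest midbrain library. Genes of the hypothalamus, a neighbouring tissue, had higher sums in Fmr1CRE midbrain. None was called in the main edgeR fit of all 6 libraries, by genotype alone. The 19 members summed to 94.4 to 185 CPM against 36.8 to 64.1 CPM, and Avp, Oxt and Hcrt led them. In forebrain the same genes summed to 18.9, 53.0 and 104 CPM in Fmr1CRE and 128, 135 and 86.6 CPM in wild-type libraries. In hindbrain the sums overlapped, at 35.3 to 61.5 and 39.4 to 51.4 CPM. The 2 forebrain libraries of replicate 3 stand apart. Between the 2 mice of that number, 10 genes differed 8-fold or more in midbrain and in hindbrain alike. In forebrain 8 of them had the other sign, 5 of these by 8-fold or more. Which region carries the true labels of these 2 mice cannot be told, so midbrain results are also given without both libraries of replicate 3.

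Some sequences show how small the stretch is on which a transcript is recognised. The following pairs belong to genes on which the results turn, and were read from GENCODE M21 transcripts of GRCm38 (mm10). In Fmr1, whose exon 12 is known to be used in part of the brain's transcripts, Fmr1-202 holds a 63-base exon at chrX:68705861-68705923 (plus strand) that Fmr1-206 skips. Capitals mark the exon.

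Fmr1-202: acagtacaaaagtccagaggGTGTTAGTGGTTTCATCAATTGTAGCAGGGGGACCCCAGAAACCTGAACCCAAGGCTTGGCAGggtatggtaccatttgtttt

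Fmr1-206: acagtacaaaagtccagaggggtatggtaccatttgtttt

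Gfap, on the minus strand of chromosome 11, codes for the intermediate filament of astrocytes. Gfap-201 ends in 2 exons that Gfap-202 replaces by a last exon of its own at chr11:102890166-102891520. Gfap-202 is the transcript of the delta form of GFAP, which has another C-terminal tail.

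Cep131, also on the minus strand of chromosome 11, codes for a protein of the centriolar satellites around the centrosome. Cep131-201 and Cep131-202 both have 26 exons and share 24 of them. They differ at 1 junction, in 2 bases of the first and 5 of the second, in capitals.

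Cep131-201: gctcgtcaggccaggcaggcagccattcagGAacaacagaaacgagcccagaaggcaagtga

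Cep131-202: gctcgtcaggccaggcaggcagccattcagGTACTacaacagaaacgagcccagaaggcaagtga

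Trim9, on the minus strand of chromosome 12, codes for a brain ubiquitin ligase of axon branching. Trim9-201 lacks a 33-base exon (chr12:70267234-70267266) and the 189-base exon after it, both held by Trim9-202. The short exon is in capitals, and the line of Trim9-201 joins the exons on either side of the 2 that it lacks.

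Trim9-202: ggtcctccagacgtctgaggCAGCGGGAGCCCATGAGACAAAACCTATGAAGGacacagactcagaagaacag

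Trim9-201: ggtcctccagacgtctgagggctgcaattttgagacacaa

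Fmr1, the gene beside the edited element, was examined first. Its normalized gene count was 1759, 1757 and 1671 in Fmr1CRE midbrain and 1542, 1712 and 1912 in wild-type midbrain. The groups overlapped, with 1729 ± 50.2 against 1722 ± 185 (SD, n = 3 each). On the log2 scale Fmr1CRE midbrain was higher by 0.006 (standard error 0.10; edgeR quasi-likelihood test, p = 0.958 and adjusted p = 0.995; two-sided exact permutation test, p = 1). Among the 13 annotated transcripts of Fmr1, Fmr1-206, which codes for the protein without exon 12, held most reads in every library. It had 1179.7, 1348.1 and 1162.5 reads in Fmr1CRE and 968.6, 1091.1 and 1335.0 in wild-type midbrain. Its share was 71.0, 71.7 and 69.5% in Fmr1CRE and 66.6, 66.1 and 63.0% in wild-type midbrain, so that the genotypes did not overlap. The means were 70.7 ± 1.1 and 65.2 ± 1.95% (SD, n = 3 each; two-sided exact permutation test, p = 0.1, the smallest that 3 against 3 allows). The test of shares across all transcripts did not call it (edgeR diffSpliceDGE, adjusted p = 1). Its abundance differed by 0.14 on the log2 scale (standard error 0.07; edgeR, adjusted p = 1). In hindbrain and forebrain the shares of Fmr1-206 overlapped between genotypes. Hindbrain values were 65.2, 58.7 and 60.1% in Fmr1CRE and 67.7, 58.5 and 53.8% in wild-type mice.

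Fmr1-202, which keeps exon 12 and starts its exon 15 75 bases later, had a share of 14.4, 21.9 and 19.1% in Fmr1CRE and 18.3, 18.9 and 19.5% in wild-type midbrain. These values overlapped (edgeR diffSpliceDGE, adjusted p = 1). Fmr1-205, which starts further upstream than Fmr1-206 and otherwise lacks 6 of its bases, had 121.0, 0.0 and 70.5 reads in Fmr1CRE and 104.7, 111.8 and 126.4 in wild-type midbrain. It was thus listed at 0 in 1 library of 6, beside more than 70 reads in each of the others. Fmr1-212, Fmr1-213 and Fmr1-208, annotated as retained introns, each had mean shares between 1.48 and 2.76% in either genotype, and none was called. Fmr1-201, Fmr1-203 and Fmr1-204 were each read in a single wild-type library, with 28.9, 63.7 and 35.4 reads, and were listed at 0 in the other 5. These 3, Fmr1-206 and Fmr1-202 hold 0 words of 31 bases that no other annotated transcript holds, and Fmr1-205 holds 28.

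**Figure D1:**
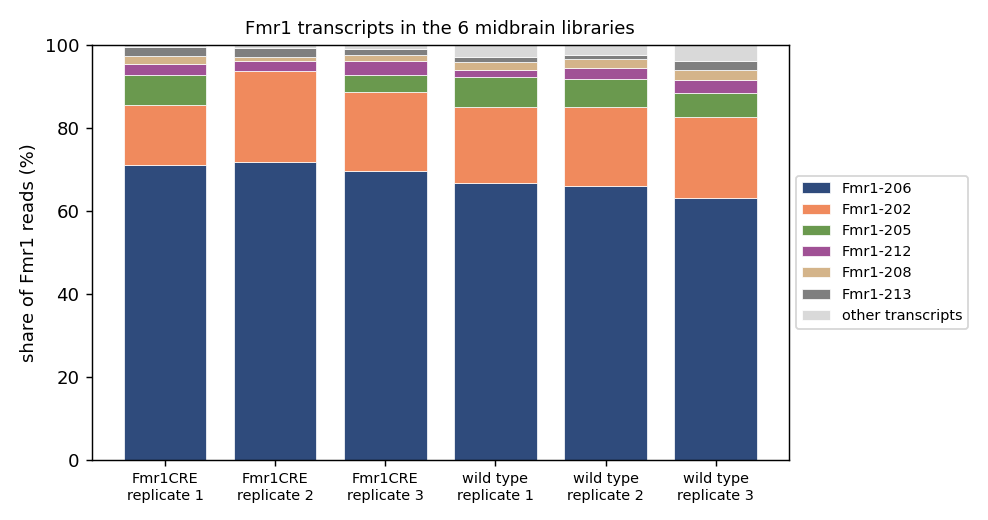
Shares of the Fmr1 transcripts, as percent of all reads of Fmr1 (vertical axis), stacked for each of the 6 midbrain libraries. Fmr1-206 fills 69.5 to 71.7% of the Fmr1CRE bars and 63.0 to 66.6% of the wild-type bars, and Fmr1-205 is missing from Fmr1CRE replicate 2.

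Over all transcripts, abundance was compared with edgeR's quasi-likelihood test after edgeR's default removal of low counts. This left 51294 transcripts of 18023 genes out of 136288 annotated transcripts. None was called at an adjusted p under 0.05 (0.0% of those tested), and the smallest adjusted p was 0.26. At an unadjusted p under 0.05 there were 1788 transcripts (3.49%), 853 higher and 935 lower in Fmr1CRE midbrain. The median log2 fold change was -0.005. Of the 20 transcripts with the smallest p, 18 were listed at 0 in all 3 libraries of 1 genotype. The other two were Gfap-202 and the pseudogene transcript Gm5436-201. DESeq2 called 358 transcripts, of which 157 were listed at 0 in all 3 libraries of 1 genotype, and limma on log2(TPM + 0.1), where TPM is the length-corrected transcript abundance, called 72, of which 71 were. A fit over all 18 libraries called 6, all of this kind.

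At the level of genes, 1 of the 18400 genes tested was called from the deposited gene counts (0.00543%). It was the processed pseudogene Gm5436, with 1, 1 and 0 counts in Fmr1CRE and 51, 55 and 70 counts in wild-type midbrain. Its log2 fold change of -6.20 had a standard error of 0.47 (edgeR, adjusted p = 0.0287). In forebrain the 2 mice of replicate 3 had the opposite values, 54 and 0. Without both libraries of replicate 3 in midbrain, the genes called were Oxt, Avp and Gm14440, and Gm5436 was not among them. Oxt and Avp encode the hypothalamic hormones oxytocin and vasopressin. Neither was called in the main fit of all 6 libraries (edgeR, adjusted p = 0.453 and 0.106). A fit that treated equal replicate numbers as pairs called Avp. Avp-201 had 522.1, 516.6 and 164.1 reads in Fmr1CRE and 15.7, 8.9 and 6.1 in wild-type midbrain.

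The shares of transcripts within their genes were compared with diffSpliceDGE in edgeR, which sets each transcript against the rest of its gene and estimates 1 spread per gene. It tested 43823 transcripts of 10610 genes with at least 2 transcripts past the filter. The median gene had 3 of them, and the leading transcript held a median of 68.7% of the reads. At an adjusted p under 0.05, 103 transcripts were called (0.235%), 51 higher and 52 lower in Fmr1CRE midbrain, in 91 genes (0.858% of the genes tested). At an unadjusted p under 0.05 there were 535 (1.22%). Of the 103, 101 were listed at 0 in all 3 libraries of 1 genotype, 52 in Fmr1CRE and 49 in wild-type midbrain. In the other genotype, the median reads of each of these 101 transcripts ran from 11.8 to 213.0, with a median of 45.8. Their mean shares there ran from 0.163 to 92.3% of their gene. The remaining 2 were Cep131-201 and Trim9-201.

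The 10 genes with the smallest adjusted p all had a transcript of this on or off kind. Atp11b-201, of a phospholipid flippase, had 202.3, 138.5 and 117.7 reads in Fmr1CRE midbrain and was listed at 0 in the 3 wild-type libraries (edgeR diffSpliceDGE, adjusted p = 1.94e-07). The retained-intron transcript Atp11b-203, with the largest share of that gene, had 1209.5 to 1456.5 and 1042.9 to 2244.4 reads, which overlapped. Slc19a1-209, of the reduced folate carrier, was listed at 0 in Fmr1CRE midbrain and had 204.6, 174.4 and 239.4 reads in wild-type midbrain, 57.1, 50.3 and 67.8% of its gene (edgeR diffSpliceDGE, adjusted p = 1.57e-06). Slc19a1-201 held 79.6, 81.4 and 78.7% in Fmr1CRE midbrain and 29.3, 33.3 and 11.9% in wild-type midbrain. The 2 transcripts therefore exchanged the leading place between the genotypes. In hindbrain of the same mice, however, Slc19a1-209 held 78.7, 80.1 and 78.9% in Fmr1CRE and 66.9, 72.2 and 76.1% in wild-type libraries. The transcript listed at 0 in all 3 Fmr1CRE midbrain libraries was thus the main one in all 3 Fmr1CRE hindbrain libraries.

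The other genes of this group were of several kinds. Etv3 codes for a transcriptional repressor, Hdac7 for a histone deacetylase, Rps18 for a ribosomal protein, Mtdh for metadherin, Dzip1l for a cilium protein, Tecpr1 for a protein of autophagy, Psmd11 for a proteasome subunit and Cables1 for a partner of cyclin-dependent kinases. Dzip1l-201 was listed at 0 in Fmr1CRE midbrain and had 58.3, 122.0 and 102.4 reads in wild-type midbrain, while Dzip1l-204 had 103.7, 85.1 and 53.7 reads in Fmr1CRE midbrain and was listed at 0 in wild-type midbrain. Rps18-201 had 176.1, 336.3 and 136.3 reads in wild-type midbrain and was listed at 0 in Fmr1CRE midbrain. Reads of ribosomal protein genes can be split with their many pseudogenes, so that the values of Rps18 are uncertain.

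Being listed at 0 beside many reads was common in these files, and only zeros in exactly 3 libraries can be aligned with genotype. A transcript was counted here when it was listed at 0 (under 0.5 reads) in 1 to 5 midbrain libraries and had 20 reads or more in each of the others. There were 5486 such transcripts, 10.6% of the 51893 with 20 reads or more in any library. Listed at 0 in 1, 2, 3, 4 and 5 libraries were 1574, 1010, 830, 895 and 1177 of them. Of the 830 listed at 0 in 3 libraries, 91 were at 0 in the 3 of 1 genotype, 50 in Fmr1CRE and 41 in wild-type midbrain. That is 11.0% of the 830. Among all ways to choose 3 of the 6 libraries, a fraction of 0.1 takes the 3 of 1 genotype, and the 11.0% lies near it. Of the 5486 transcripts, 86.8% had fewer than 100 words of 31 bases of their own, against 44.1% of the 37659 transcripts with 10 reads or more in every library.

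**Figure D2:**
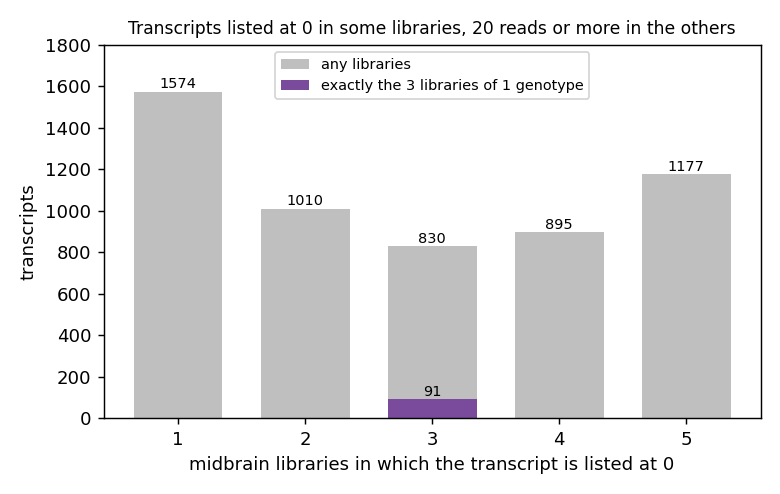
Number of transcripts (vertical axis) listed at 0 in 1 to 5 of the 6 midbrain libraries and read 20 times or more in each of the others. Bars give 1574, 1010, 830, 895 and 1177 transcripts, and the coloured part of the bar for 3 libraries gives the 91 listed at 0 in exactly the 3 libraries of 1 genotype.

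The transcripts called in the test of shares had little sequence of their own. Their median was 28 words of 31 bases found in no other annotated transcript, against 93 for all transcripts tested. Under 100 such words were held by 82.5% of the called and 51.2% of the tested transcripts, and 0 words by 20.4% and 12.5%. Protein-coding transcripts made up 66.0% of the called and 56.6% of the tested, retained introns 10.7 and 22.4%, and transcripts annotated for nonsense-mediated decay 12.6 and 6.91%. Calls lay at low reads. Of the 103, 81 had a mean under 50 reads, where the median coefficient of variation of a share within a genotype was 41.6%. Another 21 had 50 to 200 reads and 1 had 200 to 1000. At 1000 reads or more, where that coefficient was 3.17%, there were 0 among 4361 transcripts.

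With at least 10 reads required in each of the 6 libraries, which leaves out every transcript listed at 0 anywhere, 30548 transcripts of 8681 genes remained. Of these, 8 were called (0.0262%), 4 higher and 4 lower in Fmr1CRE midbrain, each in another gene, and 786 had an unadjusted p under 0.05 (2.57%). Cep131-201 and Trim9-201 were among the 8. The others were Gfap-202 and Pabpc1-210, which rose, and Cul2-205, Pacsin2-202, Rad17-205 and Slc20a1-201, which fell. Of the 8 genes, none was itself called from the gene counts. Their gene-level log2 fold changes ran from -0.13 for Cep131 to 0.32 for Gfap.

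**Figure D3:**
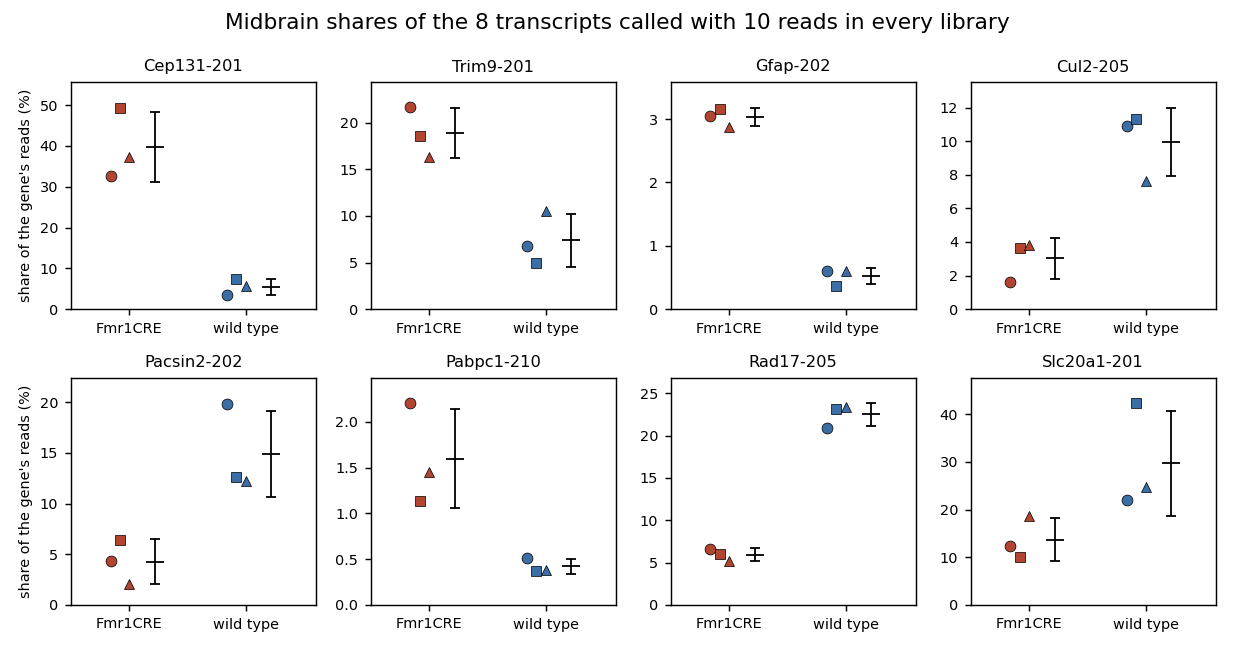
Share of the gene's reads in percent (vertical axes, from 0, scaled for each panel) in the 3 Fmr1CRE and 3 wild-type midbrain libraries, for the 8 transcripts called with 10 reads in every library. Circles, squares and triangles are replicates 1, 2 and 3, and the black marks are means with SD. In each panel the 2 genotypes do not overlap, from 39.7 against 5.5% for Cep131-201 to 1.6 against 0.421% for Pabpc1-210.

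Cep131-201 had 200.5, 311.0 and 233.5 reads in Fmr1CRE midbrain and 21.4, 48.4 and 39.0 in wild-type midbrain. Its share rose from 5.5 ± 1.96% to 39.7 ± 8.51% (SD, n = 3 each; edgeR diffSpliceDGE, adjusted p = 2.82e-07 with 10 reads in every library and 0.0108 with the default filter). All Fmr1CRE libraries lay above all wild-type libraries. The coding transcript Cep131-202 had 238.3, 143.4 and 186.6 reads in Fmr1CRE and 398.9, 424.2 and 444.4 in wild-type midbrain, again without overlap. It was not called (edgeR diffSpliceDGE, adjusted p = 0.0503 with 10 reads in every library). Another coding transcript, Cep131-207, was read only in Fmr1CRE replicate 3, with 18.8 reads. The gene as a whole had 600 ± 17.8 against 657 ± 53.9 normalized counts (SD, n = 3 each; edgeR, adjusted p = 0.874). Cep131-201 and Cep131-202 are told apart by the junction printed above, and hold 29 and 32 words of their own. Without both libraries of replicate 3, the adjusted p of Cep131-201 was 0.00637.

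Gfap-202 had 242.8, 264.9 and 217.7 reads in Fmr1CRE midbrain and 39.7, 27.4 and 46.4 in wild-type midbrain. Its share was 3.05, 3.17 and 2.88% against 0.599, 0.371 and 0.599%, and the 2 groups lay far apart for their spread. The means were 3.03 ± 0.144 and 0.523 ± 0.131% (SD, n = 3 each; edgeR diffSpliceDGE, adjusted p = 0.000118 with 10 reads in every library). In abundance its log2 fold change was 2.70 (standard error 0.22), and this did not pass the test over all transcripts (edgeR, adjusted p = 0.26). With the default filter its share was not called either (edgeR diffSpliceDGE, adjusted p = 1). That filter adds Gfap-203, a short transcript with 69.8, 61.7 and 63.2 reads in Fmr1CRE and 0.0, 0.0 and 44.7 in wild-type midbrain, to the spread estimated for the gene. Unlike most transcripts called, Gfap-202 holds 1096 words of its own. The leading transcript Gfap-201 had 7660.4, 8042.3 and 7283.0 reads in Fmr1CRE and 6590.3, 7344.6 and 7648.9 in wild-type midbrain, which overlapped. Without both libraries of replicate 3, the adjusted p of Gfap-202 was 0.0265.

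Trim9-201 had 1096.3, 1296.3 and 996.3 reads in Fmr1CRE midbrain and 434.0, 298.8 and 640.7 in wild-type midbrain. Its share rose from 7.41 ± 2.84% to 18.9 ± 2.66% (SD, n = 3 each; edgeR diffSpliceDGE, adjusted p = 6.64e-05 with 10 reads in every library and 0.00152 with the default filter). Without wild-type replicate 2 the call was lost (edgeR diffSpliceDGE, adjusted p = 0.0646). The leading transcript Trim9-202 had shares with a mean of 42.2% in Fmr1CRE and 54.7% in wild-type midbrain and was not called.

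Pabpc1-210, a retained-intron transcript of the cytoplasmic poly(A)-binding protein, had 90.8, 62.1 and 75.8 reads in Fmr1CRE midbrain and 24.6, 19.2 and 19.1 in wild-type midbrain. It was 1.6 ± 0.545% of its gene against 0.421 ± 0.0788% (SD, n = 3 each; edgeR diffSpliceDGE, adjusted p = 0.013 with 10 reads in every library), while the leading Pabpc1-201 had 72.2 and 72.1%. Cul2-205, of a ubiquitin ligase scaffold, had 26.9, 60.2 and 61.6 reads in Fmr1CRE midbrain and 154.2, 162.2 and 140.6 in wild-type midbrain, and its share fell from 9.96 to 3.02% (edgeR diffSpliceDGE, adjusted p = 0.00642). It holds only 3 words of its own. Pacsin2-202, of a protein that bends membranes in endocytosis, fell from 14.9 to 4.27% (edgeR diffSpliceDGE, adjusted p = 0.00642). It differs from the leading Pacsin2-210 mainly in its first exon.

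Rad17-205, of the clamp loader of the DNA damage checkpoint, is annotated for nonsense-mediated decay and carries a 205-base exon (chr13:100637653-100637857, minus strand) that Rad17-201 lacks. It had 26.8, 24.7 and 20.5 reads in Fmr1CRE midbrain and 66.3, 80.0 and 102.7 in wild-type midbrain, and its share fell from 22.5 to 5.95% (edgeR diffSpliceDGE, adjusted p = 0.0346). Slc20a1-201, of a phosphate transporter, uses a first exon upstream of that of Slc20a1-202. It fell from 29.8 to 13.7% (edgeR diffSpliceDGE, adjusted p = 0.0374). Each replicate was also left out in turn. Cep131-201 and Gfap-202 were called in all 6 of these fits, Trim9-201 in 5, Cul2-205 in 4, Pabpc1-210 and Pacsin2-202 in 3, Slc20a1-201 in 2 and Rad17-205 in 1. Without both libraries of replicate 3, Trim9-201 and Cul2-205 were called too (edgeR diffSpliceDGE, adjusted p = 0.000221 and 0.0478). Pacsin2-202, Pabpc1-210, Rad17-205 and Slc20a1-201 were then not called by edgeR, with adjusted p of 0.165, 0.165, 0.655 and 0.0584.

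The same mice also gave hindbrain and forebrain libraries, in which the transcripts called in midbrain were looked up. They come from the same 6 mice, so they show whether a difference goes with a mouse across its brain and are not further replicates of the genotype. Between the 2 filters, 109 transcripts had been called in midbrain, all without overlap between the genotypes. In hindbrain 11 of them (10.1%) again did not overlap and had the same direction, and 6 (5.5%) did not overlap in the opposite direction. Of the 4329 tested transcripts whose midbrain shares did not overlap, called or not, these values were 7.18% and 5.15%. Of the 103 transcripts called with the default filter, 50 had the same sign in hindbrain and 50 in forebrain. In hindbrain 3 of the 52 that could be tested there were called with the same filter, and in forebrain 0 of 65. The 3 were Babam2-205, Clba1-202 and Xlr3a-202 (edgeR diffSpliceDGE, hindbrain adjusted p = 0.000633, 0.00296 and 0.0161), each listed at 0 in all 3 libraries of 1 genotype in both regions. Of all transcripts tested, the same test called 148 of 44614 in hindbrain (0.332%) and 95 of 43541 in forebrain (0.218%). With 10 reads in every library it called 0 of 29966 in hindbrain and 0 of 29148 in forebrain (edgeR diffSpliceDGE). At an unadjusted p under 0.05 there were 1114 and 947.

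Gfap-202 was among the 11, but was not called in hindbrain. Its share there was 2.69, 3.01 and 2.83% in Fmr1CRE and 0.506, 0.41 and 0.656% in wild-type mice, close to the midbrain values (edgeR diffSpliceDGE with 10 reads in every library, unadjusted p = 5.55e-06 and adjusted p = 0.0626; adjusted p = 0.767 with the default filter). In forebrain it was 3.44, 3.83 and 0.627% in Fmr1CRE and 0.648, 0.423 and 2.47% in wild-type libraries. The forebrain libraries of replicate 3 thus had the values of the other genotype. Cep131-201 had hindbrain shares of 55.1, 53.2 and 53.9% in Fmr1CRE and 0.0, 10.5 and 5.03% in wild-type mice. Its forebrain shares were 40.2, 45.2 and 19.7% in Fmr1CRE and 11.9, 4.0 and 57.5% in wild-type libraries, with replicate 3 again the other way round.

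Xlr3a, of a gene family on the X chromosome expressed in lymphocytes and brain, behaved likewise. It has near-identical neighbour copies, so the split of reads is uncertain. Xlr3a-201 had 136.0, 77.4 and 80.0 reads in Fmr1CRE midbrain and was listed at 0 in the 3 wild-type libraries (edgeR diffSpliceDGE, adjusted p = 0.000537). Xlr3a-202 was listed at 0 in Fmr1CRE midbrain and had 45.6, 48.4 and 71.3 reads in wild-type midbrain (edgeR diffSpliceDGE, adjusted p = 0.000766). Hindbrain shares of Xlr3a-201 were 84.0, 87.0 and 81.1% in Fmr1CRE and 0.0, 12.5 and 0.0% in wild-type mice. In forebrain they were 72.3, 83.3 and 0.0% against 0.0, 0.0 and 70.7%. In these 3 genes the 2 forebrain libraries of replicate 3 went with those of the other genotype. Their 4 midbrain and hindbrain libraries went with their own genotype. That was fixed by the choice of transcripts without overlap between genotypes in both regions, and does not bear on which labels are true.

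**Figure D4:**
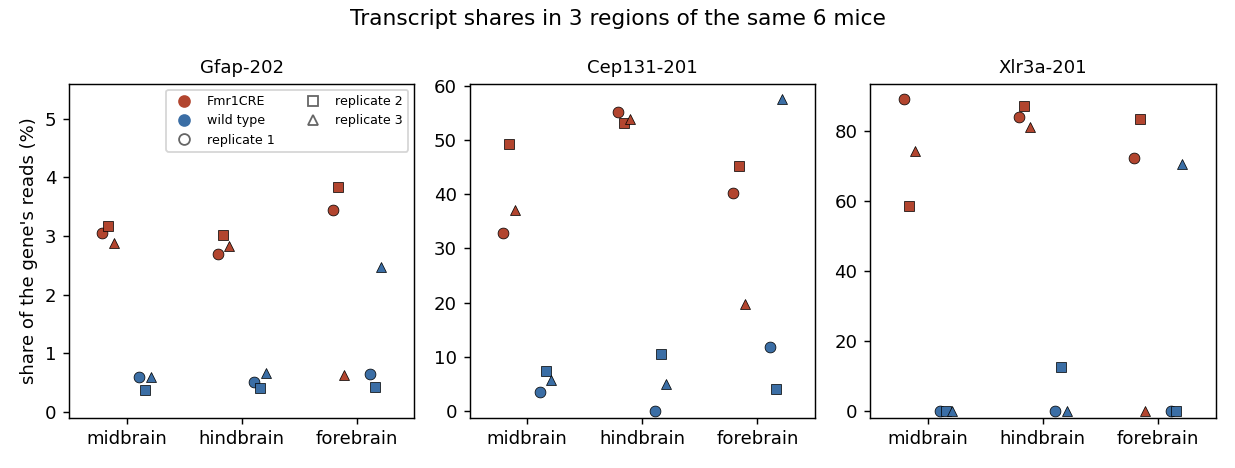
Share of the gene's reads in percent (vertical axes, scaled for each panel) of Gfap-202, Cep131-201 and Xlr3a-201 in midbrain, hindbrain and forebrain of the same 6 mice. Each point is 1 library, red for Fmr1CRE and blue for wild type, with circles, squares and triangles for replicates 1, 2 and 3. The transcripts were chosen among those whose genotypes do not overlap in midbrain and hindbrain. In forebrain the 2 triangles lie on the other side, at 0.627 and 2.47% for Gfap-202.

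Among the others of the 11, Babam2-205, of a subunit of a DNA repair complex, had 116.6, 98.3 and 78.7 reads in Fmr1CRE midbrain and 115.3, 104.2 and 80.5 in Fmr1CRE hindbrain. It was listed at 0 in the wild-type libraries of both regions, but in forebrain it held 12.2% in 1 Fmr1CRE library and 14.1 to 17.8% in the 3 wild-type libraries. Clba1-202 held 9.34 to 12.6% of its gene in Fmr1CRE hindbrain and was listed at 0 in wild-type hindbrain, and in forebrain it was read in 1 Fmr1CRE and 2 wild-type libraries. The transcripts named in this comparison of regions were chosen after their values were seen. Dzip1l-201, Xlr3a-202, Bicd1-201, Aff4-203, Trappc10-202 and 3830408C21Rik-205 made up the rest.

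For 11703 genes with at least 50 reads in every midbrain library and 2 or more transcripts, the leading transcript was recorded. It was the same in all 6 libraries for 9754 genes (83.3%) and mixed between libraries for 1910 (16.3%). For 39 genes (0.333%) it was 1 transcript in all 3 Fmr1CRE and another in all 3 wild-type libraries. The 10 of these with most reads were Phactr3, Dlg3, Hnrnpm, Olfm2, Ccdc85a, Frmd4a, Gon4l, Kcnh1, Tubgcp5 and Tor1b. In these 10 genes neither leading transcript was called in share, and the only call was the minor transcript Phactr3-203 (edgeR diffSpliceDGE, adjusted p = 0.00173), listed at 0 in Fmr1CRE midbrain and with 29.5, 25.6 and 26 reads in wild-type midbrain. In Dlg3, which codes for the synaptic scaffold SAP102, Dlg3-201 held 38.1, 34.9 and 32.9% in Fmr1CRE and 32.3, 30.9 and 29.0% in wild-type midbrain. Dlg3-202 held 25.7, 30.1 and 28.4% in Fmr1CRE and 33.0, 31.2 and 32.3% in wild-type midbrain. The place of leader thus changed on a difference of a few points. In Hnrnpm, of a splicing regulator, Hnrnpm-201 held 32.7 to 38.8% and 28.1 to 30%, and its rival Hnrnpm-202 29.2 to 31.3% and 30.1 to 34.6%, in Fmr1CRE and wild-type midbrain. Of the 39 genes, Slc19a1, Slc39a8, Xlr3a and Psrc1 had a leading transcript called in share. In Psrc1, of a spindle protein, Psrc1-202 held 76.2, 72.5 and 65.8% in Fmr1CRE midbrain and Psrc1-201 67.8, 66.8 and 74.4% in wild-type midbrain, each listed at 0 in the other genotype.

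The deposited gene counts were then set beside the transcript reads. They are not plain sums of reads, but are scaled by the length of the transcripts that salmon favoured in each library, and a gene's count can therefore move when reads pass between transcripts of different length. Of 18264 genes tested both ways, the log2 fold change from gene counts differed by over 0.2 from that of the summed reads for 1957 (10.7%), by over 0.5 for 482 and by over 1 for 95. Of the 1123 genes with an unadjusted p under 0.05 from gene counts, 491 were not under 0.05 from the sums, and 52 had the opposite sign there. The sums called 2 genes, Gm5436 and the pseudogene Gm13303, with 52.5, 72.3 and 50.3 reads in Fmr1CRE midbrain and 0.0 in each wild-type library.

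Nhej1, of a DNA end-joining factor, gave the plainest case. Its gene counts were 30, 32 and 254 in Fmr1CRE and 21, 29 and 34 in wild-type midbrain. The summed reads were 36, 37 and 31 against 24, 33 and 40, with no library apart from the rest. In Fmr1CRE replicate 3, 1.0 read lay on Nhej1-202, a transcript of 65 bases with an effective length of 3, and the other 30 on Nhej1-201. The log2 fold change was 1.94 from gene counts and 0.11 from summed reads (edgeR, adjusted p = 0.806 and 0.959). For Gfap the same comparison gave 0.32 from gene counts (edgeR, unadjusted p = 0.00327, adjusted p = 0.708) and 0.14 from summed reads (unadjusted p = 0.123). Gfap-203, of 356 bases with an effective length of 109 to 115, was the transcript read in all Fmr1CRE but only 1 wild-type midbrain library. Ptgfr, of a prostaglandin receptor, gave 2.93 and -0.28, and Mmp11, of a matrix protease, -1.65 and -0.02. For Xlr3a the values were 1.84 and 0.93, and for the immediate early gene Egr2 3.17 and 1.74. Fmr1, at 0.006 and 0.008, did not depend on the choice. Apart from Gm5436, Nhej1 and Fmr1, the genes named in these comparisons of fits were chosen after their values were seen.

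**Figure D5:**
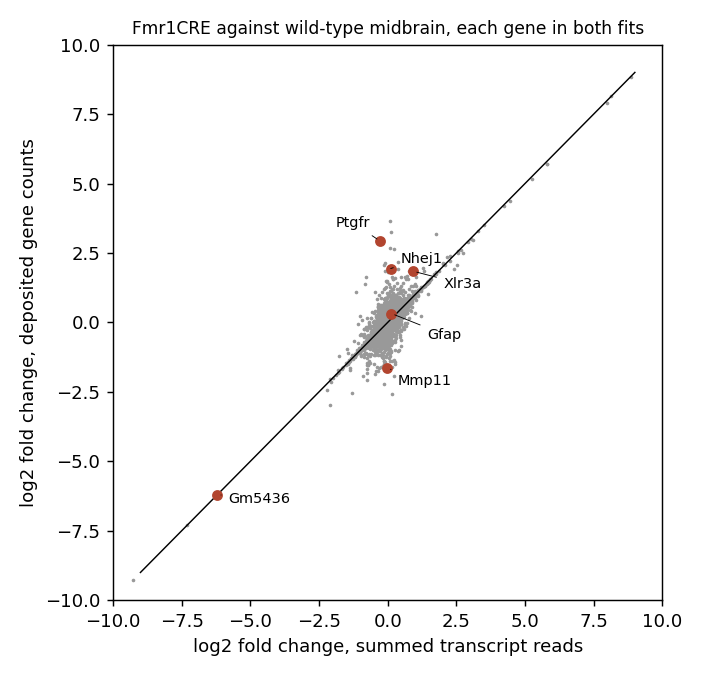
Log2 fold change of each gene, Fmr1CRE against wild-type midbrain, from the summed transcript reads (horizontal axis) and from the deposited gene counts (vertical axis). Grey points are 18264 genes, the line marks equal values, and red points are named genes. Ptgfr (2.93 against -0.28) and Nhej1 (1.94 against 0.11) lie far above the line, and Gm5436 on it.

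By annotation class, the libraries of the 2 genotypes overlapped in each of the 5 classes. Protein-coding transcripts took 85.1 ± 0.49% of the reads in Fmr1CRE and 85.4 ± 0.936% in wild-type midbrain (SD, n = 3 each; two-sided exact permutation test, p = 0.7, adjusted p = 0.9 over 5 classes). Retained introns took 3.99 ± 0.219 and 4.02 ± 0.294%, and transcripts of nonsense-mediated decay 2.75 ± 0.043 and 2.77 ± 0.0765%. The class of all other annotations took 5.02 ± 0.285 and 4.7 ± 0.507% (two-sided exact permutation test, p = 0.4, adjusted p = 0.9).

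Gene lists that bear on FMRP and on splicing were read against the whole table. Of the FMRP family and its partners, 113 transcripts of 24 genes were tested, and 0 were called in abundance. At an unadjusted p under 0.05, 1 was higher and 2 lower (2.65%, against 3.49% of all transcripts), and the median log2 fold change was 0.013 (all transcripts -0.005). Of their 79 transcripts with 10 reads in every library, Pabpc1-210 was the 1 called in share, against 0.0262% of all such transcripts. At an unadjusted p under 0.05 in share there were 4 of the 79, against 2.57% of all. Fxr1-202, of the Fmr1 paralog Fxr1, had 9.07 ± 3.33% in Fmr1CRE and 14.8 ± 2.6% in wild-type midbrain (SD, n = 3 each) and Stau2-204, of a double-stranded RNA-binding protein, 4.18 and 7.48%, and neither was called (edgeR diffSpliceDGE, adjusted p = 1). Of the 15 genes taken from the study, 14 had 59 transcripts tested, of which 1 was lower at an unadjusted p under 0.05 and 0 were called.

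Of 61 splicing regulators, 483 transcripts were tested, 7 higher and 8 lower at an unadjusted p under 0.05 (3.11%, against 3.49% of all transcripts), with 0 called. In share, 383 could be tested with 10 reads in every library, and 0 were called (0.0262% of all such transcripts). At an unadjusted p under 0.05 there were 11, against 2.57% of all. Transcripts annotated for nonsense-mediated decay, by which several of these factors limit their own protein, gave differences in share between -15.0 and 4.06 points with a median of -0.0723 over 49 transcripts. Clk1-210, such a transcript of a kinase of splicing factors, had the mean shares 10.6 ± 5.21% in Fmr1CRE and 25.6 ± 9.74% in wild-type midbrain (SD, n = 3 each; edgeR diffSpliceDGE, adjusted p = 0.715). Rbfox3-209 had 30.1, 35 and 33.4 reads in Fmr1CRE and 64.3, 67.9 and 68.1 in wild-type midbrain, without overlap and without a call (edgeR, adjusted p = 0.701 for abundance). Of 49 neuronal genes known for their isoforms, 375 transcripts were tested, with a median of -0.097 and 0 called. At an unadjusted p under 0.05, 5 were higher and 17 lower (5.87%, against 3.49% of all transcripts). From the gene counts, 3 of the 49 genes were lower and 0 higher at that threshold, with a median of -0.105. Mapt-202, of the tau gene, had 15.8, 17.3 and 12.9 reads in Fmr1CRE and 41.7, 47.7 and 149.4 in wild-type midbrain, and missed the threshold in share (edgeR diffSpliceDGE, adjusted p = 0.0969 with 10 reads in every library).

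Cell type and region lists give the makeup of the dissected tissue. In bulk tissue, fewer cells of a type and less RNA per cell cannot be told apart. Of 15 hypothalamic genes tested, 11 were higher at an unadjusted p under 0.05, with a median log2 fold change of 1.74. In the main fit 0 were called. Of the 14 midbrain marker genes, 3 were lower and 0 higher, with a median of -0.33. Of all 18400 genes, 518 were higher and 617 lower at that threshold. Medians were -0.10 for 20 oligodendrocyte genes, 0.47 for 16 immediate early genes, 0.45 for 14 choroid plexus genes, 0.23 for 20 cilium genes, 0.29 for 5 blood genes, -0.06 for 11 forebrain and -0.59 for 8 hindbrain genes, against -0.005 for all genes. In none of these lists was a transcript called in abundance or in share. The part of the dissection in the shares given above was not tested.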

How the data were processed

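Midbrain poly(A) RNA of 3 Fmr1CRE and 3 wild-type littermates was compared, with hindbrain and forebrain of the same mice looked up beside it. The authors quantified reads with Salmon 0.14.0 (per the submitters' processing notes, which name mm10). The deposited transcript files hold estimated counts, which need not be whole, and TPM (abundance corrected for length and scaled to a fixed total). The deposited gene counts were made by the authors from the salmon output, and matched transcript reads rescaled by transcript length better than plain sums.

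Transcript files were assigned by the mouse and region in their names, and gene count columns by sample title. Names and biotypes came from GENCODE M21, which held 99.86% of the 136288 transcripts. The annotation release that the authors used is not given in the sources used here. Depth was 23904566 to 28060951 reads. Estimated counts were rounded and tested in edgeR 4.0.16 (R 4.3.3) by quasi-likelihood, with trimmed-mean scaling and the default filter. Shares were tested with its diffSpliceDGE function, single values by exact permutation in SciPy 1.17.1. All p-values were two-sided and Benjamini-Hochberg adjusted over all features tested, with a threshold of 0.05. Scripts were tested on simulated data, where the test of shares made more false calls than its threshold allows. DESeq2 1.42.0 and limma 3.58.1 served as alternatives, beside other filters, scalings, a replicate block and fits without single libraries. Words of 31 bases found in no other annotated transcript measured how far a transcript can be told apart. Intervals of counting error were not computed. The edgeR p-values rest on the spread between the libraries of different mice, which also holds salmon's error in sharing out reads. In the test of shares this spread is estimated for the whole gene, so it is not that of the named transcript alone.

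Named were all Fmr1 transcripts, the 20 of smallest p in abundance, the 10 genes of smallest adjusted p in share, the 10 most read genes with different leaders, up to 3 genes per list, Gm5436 and Nhej1. The comparison, its members and the gene lists were chosen with earlier results of these data known. Same-numbered mice did not deviate together (correlations of -0.02, 0.01 and 0.0), so the numbers do not pair them. Some items are not reported here.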

Additional observations from a re-analysis of the deposited data

Results flagged for a closer look

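In 6 of the transcripts called in midbrain, the 3 Fmr1CRE libraries lay apart from the 3 wild-type libraries in hindbrain as well, but on the other side. Differences below are Fmr1CRE minus wild-type mean shares, in percentage points of the gene's reads, and the difference between regions was not tested. Trim9-201, which lacks a pair of exons of the leading transcript, differed by 11.5 points in midbrain and by -11.5 in hindbrain. Its hindbrain shares were 24, 24 and 16.2% in Fmr1CRE and 34.6, 37.6 and 26.5% in wild-type mice, and the forebrain difference was 4.58 points. Slc19a1-209 differed by -58.4 points in midbrain, where Fmr1CRE libraries listed it at 0, and by 7.55 in hindbrain. Pacsin2-202, whose first exon overlaps that of the leading Pacsin2-210 and ends further downstream, differed by -10.6 points in midbrain and by 11.7 in hindbrain. Hindbrain shares of Pacsin2-202 were 29.2, 22.1 and 27.5% in Fmr1CRE and 11.1, 18.1 and 14.6% in wild-type mice.

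The other differences were smaller. Svil-203, of a membrane-bound actin-binding protein, differed by -8.9 points in midbrain and 2.06 in hindbrain. Apex1-203, of a DNA repair endonuclease, differed by -6.06 and 5.27 points. Nbea-208, of the synaptic trafficking protein neurobeachin, differed by -1.58 and 3.02 points. For these transcripts the gaps in hindbrain were narrow. Lowest Fmr1CRE and highest wild-type shares were 8.7 and 8.11% for Svil-203, 5.86 and 5.69% for Apex1-203 and 2.1 and 2.03% for Nbea-208. Apex1-203 was listed at 0 in wild-type hindbrain replicates 1 and 3, and Nbea-208 in replicate 2. Of the 109 transcripts called in midbrain these 6 make up 5.5%, beside 5.15% opposite among all transcripts whose midbrain shares did not overlap.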

How the results depend on the processing

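In abundance, DESeq2 called 358 transcripts (169 higher, 189 lower), limma on log2 TPM 72 (34 and 38) and a fit over all 18 libraries 6 (3 and 3), against 0. Genes called numbered 62 with DESeq2, 11 with no filter, 0 with 10 reads in every library, 0 with all 18 libraries, 2 from summed reads, 0 to 4 without single libraries and 3 without both of replicate 3. Transcript shares called, against 103, numbered 35 with limma (of which 4 were among the 103), 37 with a mean share of at least 5%, 8 with 10 reads in every library, 194 to 214 without single libraries and 294 without both libraries of replicate 3, of which 54 were among the 103. With 100 words of their own (chosen after seeing the data) 14 were called, and 103 with length-scaled counts (also chosen then). Genes with a share called, against 91, numbered 24, 31, 8, 150 to 161, 264 and 14 under these settings in that order. The replicate block, which treats equal numbers as pairs, called 51 shares (50 of the 103) in 45 genes. It called 1 gene, Avp in place of Gm5436. The same 10-read filter with the block called 7 transcripts, 5 of the 8. Leading transcripts differed in 13 genes at 500 reads and in 149 without replicate 3.

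The Fmr1 gene ranged from -0.067 to 0.113 (log2) without single libraries or replicate 3. Fmr1-206 passed an unadjusted threshold of 0.05 with DESeq2 (0.144) and with length-scaled counts (0.192), and no adjusted one. Fmr1-202 changed sign at 0.005 with total counts, 0.076 without replicate 3 and 0.037 length-scaled, and ran from -0.179 to 0.149 without single libraries. Fmr1-212 ran from -0.067 to 0.339. The share ratio (log2) of Atp11b-203 was 0.001 with 100 own words, and that of Tecpr1-201 was -0.303 with limma, -0.004 with 10 reads and -0.008 with 100 own words. The retained-intron difference was -0.361 points as TPM (exact permutation p = 0.3). The causes were not tested. With 3 mice per genotype a permutation p cannot go below 0.1, and single reads of 50 bases limit how far transcripts sharing exons can be told apart.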
